A study of Mus musculus with 15 samples.

Results

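Bace2 and 5 related genes were followed through mouse pancreatic islet cells: the protease genes Bace2 and Bace1, and 4 genes of membrane proteins that these proteases cut, Tmem27 (listed in the array annotation under its other symbol, Cltrn), App, Aplp1 and Aplp2. They are 6 of the 19938 genes that a single-gene transcript cluster represented on Affymetrix Mouse Gene 1.0 ST arrays. Bace2 was chosen by its measured values, since it was among the genes with the largest fall in alpha compared with beta arrays, and the other 5 were added as its paralogue and substrates with earlier results of these data known. The alpha-beta difference of Bace2 is therefore given as a description, without a test. Each of the 6 genes had 1 cluster with a single symbol, so the choice of the brightest cluster per gene left nothing out.

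RNA came from islet cells of mice on a mixed B6 and BALB/C background, in 3 groups of 5 arrays. Arrays titled beta are labelled normal islet beta cells of the genotype glucagon-Cre; RosaYFP. Arrays titled alpha are labelled normal alpha cells of the genotype RIP-CreER; Pdx1fl/+, RosaYFP, a genotype with 1 floxed Pdx1 allele. Both control groups came from mice 2 months old, sorted on the YFP reporter. The third group, labelled Pdx1-deficient (PKO) and reprogrammed cells, was taken 5 days after tamoxifen; the labels used here do not say which Pdx1 exon was deleted, how these cells were sorted or whether controls were given tamoxifen. The glucagon promoter is active in alpha cells and the rat insulin promoter (RIP) in beta cells, so the genotype labels of the 2 control groups run against their titles. Groups here follow the titles. If the genotype labels were exchanged, the beta arrays, and not the alpha arrays, come from mice with 1 floxed Pdx1 allele. The labels do not settle this. The cell type markers, given below, follow the titles and not the promoters named in the genotype labels. Nothing in the labels ties the arrays of a group to different animals, and the p-values then reflect array-to-array spread alone, part of which may be technical.

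The mean signal of 7 measured beta-cell markers was 10.02 to 10.30 in beta arrays and 8.80 to 9.40 in alpha arrays, and that of 5 alpha-cell markers was 9.18 to 9.25 and 9.34 to 10.06, as the titles say. Hormone transcripts were bright in every group: Ins2 averaged 11.90 in beta, 12.00 in alpha and 12.03 in Pdx1-deficient arrays, and Gcg 12.35, 12.74 and 12.52. Pdx1, the deleted gene, averaged 9.14 ± 0.20 in beta, 7.86 ± 0.39 in alpha and 7.75 ± 0.92 in Pdx1-deficient arrays (SD, n = 5), a Pdx1-deficient-beta difference of -1.39 (limma adjusted p = 0.0575). Whether its probes lie in the deleted part is not known here. In 1 array the label and the data were at odds. The array labelled Pdx1-deficient replicate 1 had a Pdx1 signal of 9.12, inside the beta range of 8.85 to 9.33, where the other 4 of its group read 6.53 to 7.83, and its beta-cell marker mean was 10.24. In the other 4 the beta-cell mean was 8.80 to 9.31, within the alpha range, and the alpha-cell mean of all 5 was 9.29 to 9.58, above every beta array. Alpha replicate 2 had an alpha-cell marker mean of 9.34, above every beta array but below the 9.88 to 10.06 of the other alpha arrays, with a beta-cell mean of 9.24 and a Pdx1 signal of 7.98 inside the alpha ranges. Alpha replicate 5 stood apart in acinar (digestive enzyme) markers, with a mean of 12.15 over 7 genes against 6.06 to 7.62 in the rest of its group. For some of the results that rest on these arrays, the value without the array is given too.

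BACE2 and BACE1 are membrane-bound aspartyl proteases that cut other membrane proteins close to the cell surface or in endosomes and so release their outer domains. BACE1 is known as the beta-secretase of the amyloid precursor protein APP in neurons. BACE2 is known in pancreatic beta cells for shedding TMEM27 (collectrin), a glycoprotein related to the angiotensin-converting enzyme 2 that has been tied to beta-cell mass and insulin secretion. APP and its relatives APLP1 and APLP2 are cut first by an alpha- or beta-secretase and then within the membrane by the gamma-secretase complex.

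Bace2 was brightest in beta arrays, intermediate in Pdx1-deficient arrays and dimmest in alpha arrays. Its log2 signal on the beta arrays was 10.10, 9.56, 9.71, 10.08 and 10.38 (replicates 1 to 5). On the alpha arrays it was 7.85, 8.77, 6.13, 7.76 and 7.23. On the arrays labelled Pdx1-deficient it was 9.29, 8.18, 8.85, 8.42 and 8.24. All 5 alpha and all 5 Pdx1-deficient arrays lay below all 5 beta arrays, while the Pdx1-deficient and alpha ranges overlapped. The alpha array nearest to the beta range was alpha replicate 2, and the Pdx1-deficient array nearest to it was replicate 1, the array with Pdx1 at the beta level. In alpha replicate 3 the signal came close to the median of all clusters, which was 5.88 to 6.05 on the 15 arrays. The spread within groups was widest in alpha arrays (SD 0.97) and narrower in Pdx1-deficient (SD 0.47) and beta arrays (SD 0.33, n = 5 each).

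**Figure D1:**
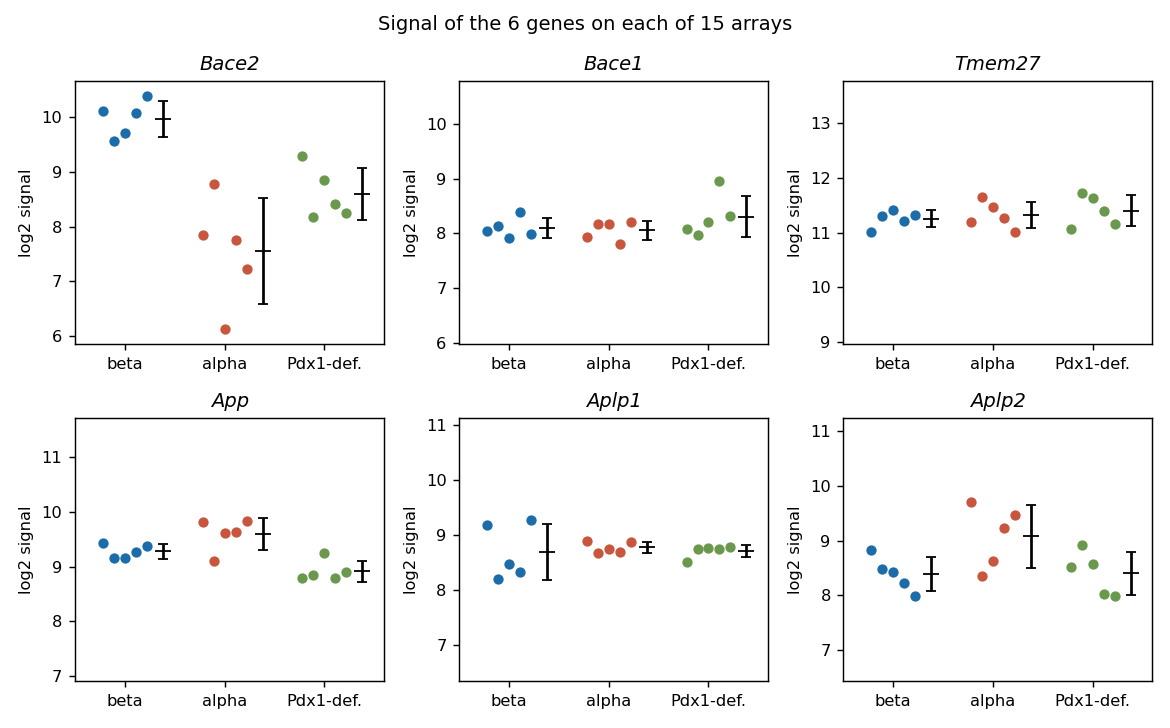
Log2 signal of the 6 genes (vertical axis, each panel spanning the same number of log2 units) on each array, with 5 arrays for each of the 3 groups in replicate order; bars give the mean and SD. Bace2 separates the beta arrays from both other groups, whereas the groups overlap for Bace1 and Tmem27.

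The group mean of Bace2 was 9.97 ± 0.33 (SD, n = 5) in beta, 8.60 ± 0.47 (SD, n = 5) in Pdx1-deficient and 7.55 ± 0.97 (SD, n = 5) in alpha arrays. The alpha-beta difference of the means was -2.42 log2 units, a fold of 5.34 if the log base is 2, and 10 of 19938 genes, Bace2 included, differed by at least as much between these groups in either direction. Without alpha replicate 2 that difference was -2.72. In bulk samples, fewer cells of a type and less RNA per cell cannot be told apart.

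The comparison of Pdx1-deficient with beta arrays asked which of the 6 genes differed between these groups. Pdx1 encodes a transcription factor that maintains beta cells. The groups may also differ in tamoxifen, age and sorting, which the labels leave partly unstated. Its deletion cannot be told apart from these. The beta arrays are those on which Bace2 had been chosen as high, so its p-values in this comparison are not independent of that choice. Its p-values, calls and separation from the beta arrays are given below as a description, and nothing is read from them. Bace2 differed by -1.37 log2 units (SE 0.37, 95% interval -2.16 to -0.58), a fold of 2.58. The mean of the beta-cell marker list was also lower, at 10.02 to 10.30 in beta and 8.80 to 9.31 in Pdx1-deficient replicates 2 to 5. By group means, Slc2a2 (9.85 to 8.02), Ucn3 (11.13 to 8.85), Nkx6-1 (7.73 to 6.74) and G6pc2 (12.03 to 10.83) fell. Ins2 (11.90 to 12.03) and Slc30a8 (11.91 to 12.12) did not, and Mafa was nearly level (6.52 to 6.43). Both Ins2 and Slc30a8 averaged 12.00 in alpha arrays too, so neither set beta arrays apart from alpha arrays. The highest value of any gene was 13.06, and whether such bright signals were compressed was not tested. The part of these markers in the Bace2 difference was not tested. Adjusted over all genes, the Bace2 difference missed the threshold (limma adjusted p = 0.077). Differences at least as large in size were found for 67 of the 19938 genes. When the array labelled Pdx1-deficient replicate 1 was left out, Bace2 fell by 1.54 and passed (limma adjusted p = 0.0481). It passed also without alpha replicate 2 (limma adjusted p = 0.0447) or alpha replicate 3 (0.038), which enter only through the shared estimate of the spread, and in 3 further settings. Over all 23 alternatives the difference ran from -1.54 to -1.20 and the adjusted p from 0.0207 to 0.182. In the arrays as labelled, 0 of the 6 genes passed, where 1.09% of all genes did; at an unadjusted p under 0.05, limma gave 2 of the 6 (Bace2 and App) and 4344 of 19938 genes. With that array left out, 1 of 6 passed, where 2.75% of all genes did. The count over all genes, 217 as labelled, leaned on some single arrays. It was 548, 21, 288, 1 and 0 without Pdx1-deficient replicates 1, 2, 3, 4 and 5. Without beta replicates 1, 2, 3, 4 and 5 it was 4, 202, 69, 3 and 4. Beta and Pdx1-deficient arrays were fully apart for 1 of the 6 genes, Bace2, and for 5.96% of all genes.

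Pdx1-deficient arrays lay above alpha arrays in Bace2 by 1.05 (95% interval 0.26 to 1.84), which did not pass (limma adjusted p = 0.611), and by 1.35 without alpha replicate 2 (limma adjusted p = 0.0798). Both comparisons of the Pdx1-deficient group reuse arrays on which Bace2 was chosen, the beta arrays as high and the alpha arrays as low. Nothing is read from the p-values of Bace2 in either comparison.

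Set beside Pdx1 itself, the array labelled Pdx1-deficient replicate 1 kept both signals near the beta range, with Pdx1 at 9.12 and Bace2 at 9.29. Replicate 4 had the lowest Pdx1 signal of all 15 arrays, 6.53, and a Bace2 signal of 8.42, in the middle of its group. Alpha arrays had Pdx1 signals of 7.27 to 8.21. Alpha replicate 3, with the highest of these, had the lowest Bace2 signal of all, 6.13.

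**Figure D2:**
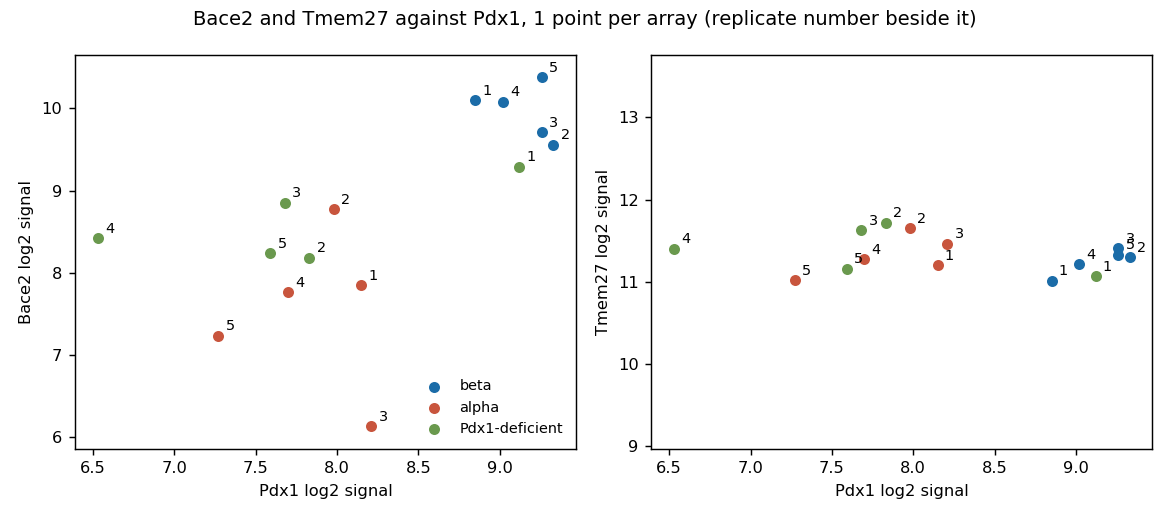
Log2 signal of Bace2 (left) and Tmem27 (right) against that of Pdx1, 1 point per array with its replicate number, coloured by group. The beta arrays and Pdx1-deficient replicate 1 form the upper right of the Bace2 panel, and Tmem27 stays between 11.01 and 11.72 at every Pdx1 level.

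Bace1, the paralogue, passed in no comparison. Its log2 signal was 8.05, 8.13, 7.91, 8.39 and 7.99 on beta arrays, 7.93, 8.17, 8.18, 7.81 and 8.20 on alpha arrays, and 8.09, 7.98, 8.21, 8.95 and 8.31 on Pdx1-deficient arrays. The 3 groups overlapped, and the highest value was that of Pdx1-deficient replicate 4. Pdx1-deficient arrays differed from beta arrays by 0.21 (95% interval -0.13 to 0.55, limma adjusted p = 0.424) and alpha from beta arrays by -0.04 (-0.38 to 0.30, limma adjusted p = 0.91). The first interval still holds a Bace1 signal higher by up to 0.55.

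The difference Bace2 minus Bace1 within each array, in which a shift common to both genes cancels, is a description too, since it rests on the beta arrays on which Bace2 was chosen as high. It was 2.04, 1.43, 1.80, 1.68 and 2.39 on beta arrays and 1.20, 0.20, 0.65, -0.53 and -0.07 on Pdx1-deficient arrays. Each Pdx1-deficient array lay below each beta array. Its mean was 1.87 ± 0.36 in beta and 0.29 ± 0.66 in Pdx1-deficient arrays (SD, n = 5), -1.58 apart. On alpha arrays it was -0.07, 0.60, -2.05, -0.05 and -0.97. These are differences between 2 probe sets, and only their change between groups has a meaning, not which gene has more transcript.

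Tmem27, the shed substrate of BACE2 in beta cells, had group means within 0.14 of the beta mean. It read 11.01, 11.30, 11.41, 11.21 and 11.33 on beta arrays, 11.20, 11.65, 11.46, 11.27 and 11.02 on alpha arrays, and 11.07, 11.72, 11.63, 11.40 and 11.16 on Pdx1-deficient arrays. The ranges overlapped, with alpha replicates 2 and 3 and Pdx1-deficient replicates 2 and 3 above every beta array. The difference from beta arrays was 0.07 in alpha arrays (95% interval -0.24 to 0.37, limma adjusted p = 0.813) and 0.14 in Pdx1-deficient arrays (-0.16 to 0.45, limma adjusted p = 0.535). The intervals leave room for a change of up to 0.45 on the log2 scale. Over all 15 arrays its SD was 0.22.

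Promoter sequences are shown for Tmem27 and App because the stretches before their start sites differ in kind. RefSeq promoter windows (build GRCm38.p6, mouse) were matched for 4 of the 6 genes, Tmem27, App, Aplp1 and Aplp2; the 250 bases before the start are printed 5′ to 3′ on the gene's strand. The capitals mark TAAT, the core that homeodomain factors such as PDX1 read, and GGGCGG, the GC box. Both were searched on both strands. The Tmem27 stretch (chrX:164089937-164090186, plus strand) was 43.6% G and C and held 5 TAAT, some of which overlap, and 0 GGGCGG.
Tmem27: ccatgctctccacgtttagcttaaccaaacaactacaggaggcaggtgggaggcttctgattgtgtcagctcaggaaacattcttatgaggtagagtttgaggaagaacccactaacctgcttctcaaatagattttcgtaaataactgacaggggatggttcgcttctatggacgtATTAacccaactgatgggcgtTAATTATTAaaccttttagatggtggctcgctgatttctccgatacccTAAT
App: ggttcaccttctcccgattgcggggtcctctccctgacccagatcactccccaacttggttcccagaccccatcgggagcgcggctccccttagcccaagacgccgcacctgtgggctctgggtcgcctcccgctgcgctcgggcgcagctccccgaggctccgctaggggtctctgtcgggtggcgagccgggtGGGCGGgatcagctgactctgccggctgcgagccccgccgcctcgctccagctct
The App stretch (chr16:85173708-85173957, minus strand) was 70.8% G and C and held 1 GGGCGG and 0 TAAT. A second Tmem27 window, not printed, held 1 TAAT. Of all 32851 windows of this length, 54.9% held TAAT and 32.7% GGGCGG, and their mean G and C content was 53.2%. Aplp1 and Aplp2 had 66.0% and 66.4% G and C, with 1 and 3 GGGCGG and 0 TAAT. These matches describe letters, not binding, and the array data hold no measurement of a factor at these sites.

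App, the amyloid precursor protein gene, had its highest mean in alpha (9.60 ± 0.29) and its lowest in Pdx1-deficient arrays (8.92 ± 0.19), with 9.28 ± 0.13 in beta arrays (SD, n = 5). It read 9.43, 9.15, 9.15, 9.27 and 9.38 on beta arrays. On alpha arrays it read 9.81, 9.11, 9.61, 9.63 and 9.84. On Pdx1-deficient arrays it read 8.79, 8.84, 9.25, 8.80 and 8.90. Alpha replicate 2 lay below the other alpha arrays, which were all above every beta array, and Pdx1-deficient replicate 3 lay above the rest of its group, which were all below every beta array.

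As labelled, none of the 3 App differences passed. Pdx1-deficient arrays differed from beta arrays by -0.36 (SE 0.13, 95% interval -0.64 to -0.08, limma adjusted p = 0.152), and by -0.20 after the arrays were quantile normalized again. Alpha arrays differed from beta arrays by 0.32 (SE 0.13, limma adjusted p = 0.182). Pdx1-deficient arrays differed from alpha arrays by -0.68 (SE 0.13, 95% interval -0.97 to -0.40, limma adjusted p = 0.264). Alpha replicate 2 decided the calls in both comparisons with alpha arrays. Without it App rose by 0.44 in alpha compared with beta arrays (limma adjusted p = 0.0242) and fell by 0.80 in Pdx1-deficient compared with alpha arrays (limma adjusted p = 0.00223).

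**Figure D3:**
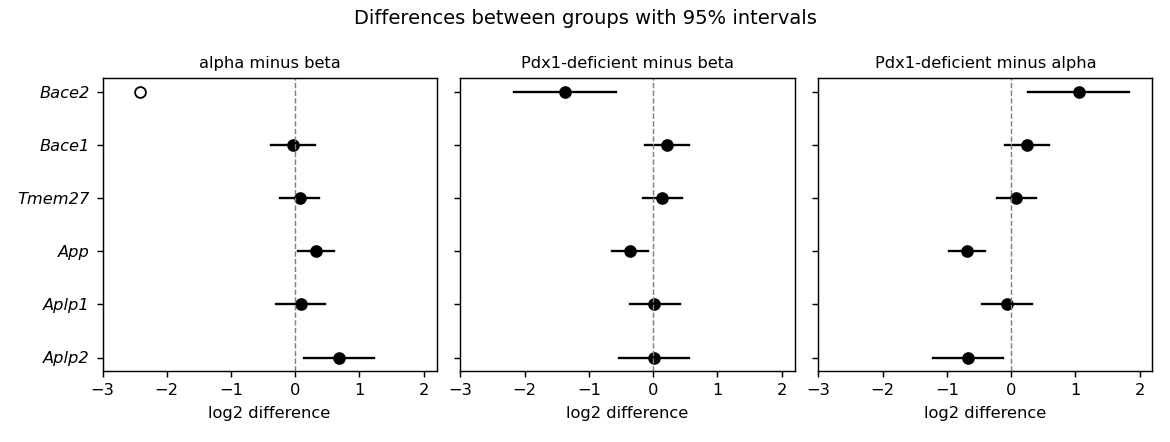
Log2 difference between group means for each of the 6 genes (horizontal axis) in the 3 comparisons; lines are 95% intervals from the fit across all genes, and the open circle is the alpha-beta difference of Bace2, shown without an interval because Bace2 was chosen on it. Bace2 is low in both groups compared with beta arrays, and App lies at 0.32 in alpha arrays and at -0.36 in Pdx1-deficient arrays.

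Aplp2, the broadly expressed APP relative, also had its highest mean in alpha arrays. It read 8.83, 8.49, 8.43, 8.22 and 7.98 on beta arrays, 9.70, 8.35, 8.63, 9.23 and 9.46 on alpha arrays, and 8.52, 8.91, 8.58, 8.03 and 7.98 on Pdx1-deficient arrays. Alpha replicates 1, 4 and 5 lay above all other arrays, while alpha replicates 2 and 3 lay within the beta range. Alpha arrays differed from beta arrays by 0.68 (SE 0.25, limma adjusted p = 0.145), which passed without alpha replicate 2 at 0.86 (limma adjusted p = 0.0431). Without that array and Pdx1-deficient replicate 1 together, the adjusted p was 0.051. Pdx1-deficient arrays differed from beta arrays by 0.01 (95% interval -0.53 to 0.55, limma adjusted p = 0.981) and from alpha arrays by -0.67 (limma adjusted p = 0.688).

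Aplp1, the APP relative best known from neurons, averaged 8.69 in beta, 8.78 in alpha and 8.71 in Pdx1-deficient arrays. The beta arrays fell apart, at 9.19 and 9.28 in replicates 1 and 5 and 8.20 to 8.47 in replicates 2 to 4. Alpha arrays read 8.68 to 8.89 and Pdx1-deficient arrays 8.51 to 8.79, all between those beta levels. The SD was 0.51 in beta arrays, 0.10 in alpha and 0.11 in Pdx1-deficient arrays. The differences were 0.09 for alpha (95% interval -0.30 to 0.47, limma adjusted p = 0.809) and 0.02 for Pdx1-deficient compared with beta arrays (-0.36 to 0.41, limma adjusted p = 0.947). Subtracting array medians moved them to 0.00 and -0.08.

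Over the 6 genes together, the alpha-beta comparison called 1, Bace2, where 4.04% of all genes passed; since Bace2 was chosen on this comparison, nothing is read from that count, and the other 5 gave 0 calls. Without alpha replicate 2 it called 3, Bace2, App and Aplp2, where 7.17% of all genes passed. The 806 genes called as labelled became 1430 there, and 427, 328, 439 and 415 without alpha replicates 1, 3, 4 and 5. Without beta replicates 1, 2, 3, 4 and 5 they became 372, 656, 527, 393 and 393. Groups did not overlap for 1 of 6 (Bace2), compared with 6.34% of all genes. Between Pdx1-deficient and alpha arrays 0 of 6 passed by limma, where 0% of all genes did; unadjusted p-values under 0.05 were found for 3 of the 6 (Bace2, App and Aplp2) and 1197 genes. Without alpha replicate 2, 1 of 6 passed, App, where 0.727% of all genes did. No gene of the 6 separated these 2 groups fully, as 0.637% of all genes did. The median difference of the 6 was 0.02, 0.08 and 0.01 in the Pdx1-deficient-beta, alpha-beta and Pdx1-deficient-alpha comparisons, and that of all genes 0.06, 0.04 and 0.02.

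The mean of the stromal marker list was higher in 4 of the 5 alpha arrays than in any beta array. By group means, Rgs5 (5.12 in beta, 6.19 in alpha) and Sparc (6.02, 7.22) differed most. Col1a1 (6.69, 6.76), Col1a2 (6.23, 6.50), Col3a1 (5.99, 6.18) and Pdgfrb (5.17, 5.26) differed little. The mean over the 6 genes was 5.69 to 6.02 in beta arrays, 6.02 to 6.29 in Pdx1-deficient arrays and 6.25 to 6.73 in alpha replicates 1, 3, 4 and 5. In alpha replicate 2, where App and Aplp2 were lowest in their group, it was 5.76. Alpha replicate 3 had the highest stromal mean, 6.73, and an Aplp2 signal within the beta range. The mean of 3 delta-cell markers was 9.40 to 10.13, 8.81 to 9.94 and 9.59 to 10.73 in beta, Pdx1-deficient and alpha arrays, and alpha replicate 5, lowest of the alpha arrays in it, had the highest App signal. The part of stromal or delta cells, if any, in the App and Aplp2 signals was not tested. The group ranges of the delta list overlapped, as did those of the endothelial, leukocyte and duct lists: 5.00 to 5.43 for 6 endothelial genes in alpha arrays against 5.01 to 5.20 in beta arrays, 5.44 to 5.64 against 5.24 to 5.78 for 6 leukocyte genes, and 5.76 to 6.13 against 5.80 to 6.13 for 5 duct genes. The mean of 2 PP-cell markers was 11.67 to 12.39 in beta, 11.98 to 12.40 in alpha and 11.79 to 12.57 in Pdx1-deficient arrays. Without alpha replicate 5, the array high in acinar markers, the alpha-beta difference was -2.34 for Bace2, 0.26 for App and 0.59 for Aplp2.

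Beyond the 6 genes, 63 genes of 7 related lists were set beside them, of which 59 had a single-gene cluster. In alpha compared with beta arrays 1 of the 59 rose and 6 fell; in Pdx1-deficient compared with beta arrays 0 rose and 1 fell; in Pdx1-deficient compared with alpha arrays 0 passed. These were 11.9%, 1.69% and 0% of the 59, and over all genes 4.04%, 1.09% and 0% passed. The share over all genes depends on the dim genes in it. With dim clusters removed, 969 of 10105 genes passed in alpha and 389 in Pdx1-deficient compared with beta arrays. The lists were also chosen with earlier results of these data known, so no enrichment is read from these shares.

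Among 19 further substrates of BACE1 or BACE2, 2 fell and 1 rose in alpha arrays (median difference 0.05, all genes 0.04), where 4.04% of all genes passed. Sez6l, whose protein is known as a BACE2 substrate in beta cells, was lower in alpha arrays. It read 9.25 to 9.54 on beta arrays, 8.22 to 9.12 on Pdx1-deficient arrays and 6.52 to 8.87 on alpha arrays, so that neither group overlapped the beta arrays. It fell by 1.59 in alpha arrays (SE 0.35, limma adjusted p = 0.0215), while its difference in Pdx1-deficient arrays was -0.69 (limma adjusted p = 0.252). Its alpha call was lost without beta replicate 1 (limma adjusted p = 0.053) or alpha replicate 3 (0.0614), and in a fit of those 2 groups alone (0.0517). Without alpha replicate 5, which had the lowest Sez6l signal, the difference was -1.27 (limma adjusted p = 0.033). Il1r2, the decoy receptor of interleukin 1, read 6.29 to 7.75 on beta arrays and 4.96 to 5.73 on alpha arrays and fell by 1.79 (limma adjusted p = 0.00975). On Pdx1-deficient arrays it read 6.80 in replicate 1 and 5.04 to 6.20 in the others, a difference of -1.38 (limma adjusted p = 0.0547), which passed without replicate 1 (-1.65, limma adjusted p = 0.0105). Chl1, a neural adhesion molecule gene cut by BACE1, rose by 0.62 in alpha arrays (limma adjusted p = 0.0404) from a dim beta signal of 4.37. The Chl1 call was lost without any single beta array, alpha replicate 1, 3, 4 or 5, or Pdx1-deficient replicate 2 (limma adjusted p = 0.0541 to 0.0875). It was also lost with array medians subtracted (limma adjusted p = 0.0503), after repeated quantile normalization (0.095) and in a fit of alpha and beta arrays alone (0.0802). Between Pdx1-deficient and alpha arrays, Sez6l differed by 0.90 (limma adjusted p = 0.712) and St6gal1, the sialyltransferase gene, by -0.45 (limma adjusted p = 0.567). Iapp, the islet amyloid gene, averaged 12.34 in beta, 12.00 in alpha and 12.18 in Pdx1-deficient arrays, named after its values were seen.

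Of 17 APP adaptor and sorting genes 2 fell in alpha arrays, where 4.04% of all genes passed, and 0 in Pdx1-deficient arrays, where 1.09% did (median differences -0.37 and -0.03). Sorl1, the sorting receptor that holds APP away from endosomal cleavage, fell by 0.60 in alpha arrays (limma adjusted p = 0.0121) and differed by -0.40 in Pdx1-deficient arrays (limma adjusted p = 0.0876). Gga2, an adaptor of the trans-Golgi network, fell by 0.63 (limma adjusted p = 0.0121) and differed by -0.42 (limma adjusted p = 0.0874). Of 6 measured gamma-secretase genes 0 passed in any comparison by limma. Aph1a had the largest alpha difference, -0.77 (limma adjusted p = 0.0534), which passed with the replicate block (0.0373) and in 7 of 23 alternatives in all, and Psenen the largest Pdx1-deficient difference, -0.63 (limma adjusted p = 0.249). Of the 3 alpha-secretase genes 0 passed: Adam9 differed by -0.50 in alpha arrays (limma adjusted p = 0.0553), which passed in 6 of 23 alternatives, and Adam17 by -0.60 in Pdx1-deficient arrays (limma adjusted p = 0.119). Of 4 measured pepsin-family aspartyl protease genes 0 passed, with Ctsd, the lysosomal cathepsin D gene, at -0.79 in alpha (limma adjusted p = 0.0642) and -0.85 in Pdx1-deficient arrays (limma adjusted p = 0.077), which passed in 5 and 2 of 23 alternatives.

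Among 5 genes tied to collectrin, Slc6a19, an amino acid transporter that needs collectrin in the kidney, fell by 0.74 in alpha arrays (limma adjusted p = 0.0202). Its signals were 5.34 to 6.18 on beta and 4.72 to 5.50 on alpha arrays, near or under the array medians, and the call was lost without beta replicate 5 (0.0524) or alpha replicate 4 (0.0504) or 5 (0.0506). It differed by -0.58 in Pdx1-deficient arrays (limma adjusted p = 0.0787). Snapin, a binding partner in granule exocytosis, differed by -0.45 in Pdx1-deficient arrays (limma adjusted p = 0.234). Among 5 genes of proteases that degrade amyloid peptides, Ece2, an endothelin-converting enzyme gene, fell in both comparisons with beta arrays, by 0.90 in alpha (limma adjusted p = 0.0124) and by 0.78 in Pdx1-deficient arrays (limma adjusted p = 0.047). It read 6.58 to 7.40 on beta, 5.77 to 6.41 on alpha and 5.95 to 6.34 on Pdx1-deficient arrays. With the mean of its 2 clusters the differences were -0.24 (limma adjusted p = 0.443) and -0.33 (limma adjusted p = 0.269), so that the calls rested on the brighter cluster, and the second call was also lost in 10 of 15 leave-outs, with the replicate block (limma adjusted p = 0.0723), after repeated quantile normalization (0.0626), in a fit of those 2 groups alone (0.0629) and under trended, robust moderation (0.0505).

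**Figure D4:**
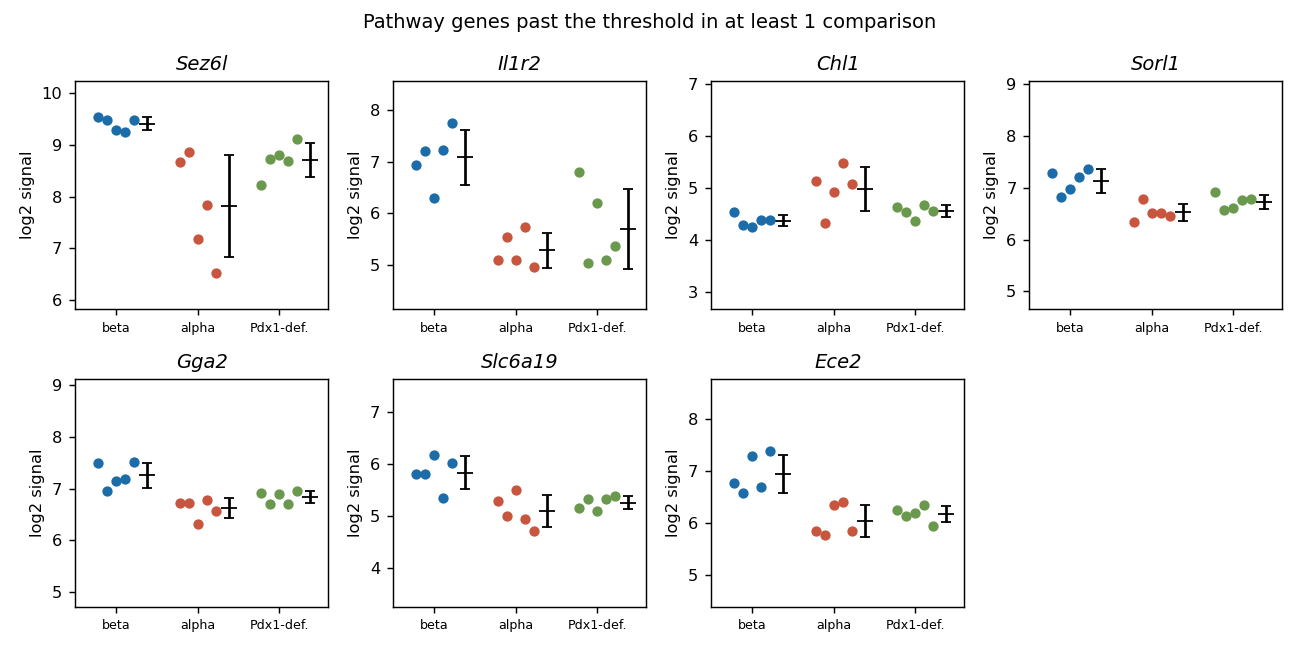
Log2 signal by array (vertical axis, panels of equal span) of the 7 pathway genes that passed the threshold in at least 1 comparison, with 5 arrays for each group; bars give the mean and SD. Sez6l, Il1r2, Sorl1, Gga2, Slc6a19 and Ece2 are lower in alpha than in beta arrays, and Chl1 is higher.

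The genes whose profile over the 15 arrays lay nearest to that of Bace2, by the root mean square difference of log2 values centred on each gene's mean, were Vil1 (0.40), Fkbp1b (0.42), Gjd2 (0.42), Dio1 (0.47) and S100a4 (0.50). For scale, the centred profile of Bace2 itself had a root mean square of 1.15, and the median distance over all genes was 1.18. Vil1, the villin gene of the actin cytoskeleton, averaged 9.05 in beta, 8.07 in Pdx1-deficient and 6.92 in alpha arrays, and Gjd2, the gap junction gene that couples beta cells, 10.37, 9.31 and 8.61. All 5 had the same order of group means as Bace2, which their choice by nearness to its profile largely fixes. By Spearman correlation over the same arrays 2 of the 5 stayed among the nearest 5. Around the flat profile of Tmem27 the nearest genes were Capsl (0.13), C1ql3 (0.14), Stk38 (0.15), Zfp979 (0.15) and Nrip3 (0.15), where Tmem27 itself had 0.22 and the median gene lay at 0.32, and 1 of these 5 was kept by Spearman correlation.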

How the data were processed

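Signals were measured on 15 arrays, 5 per group, and the deposited log2 values, made by the authors with Affymetrix Expression Console per the submitters' processing notes (no version given), were used as they are. The sources used here give no summarization, background correction or log base; base 2 is taken from the range of the values. The number of arrays limits the precision. Of 35556 transcript clusters, 21789 had 1 gene symbol in the platform annotation, 1621 several and 12146 none; the last 2 kinds were left unnamed. The gene IDs of 21698 clusters matched the GRCm38.p6 gene table, used for names, and 0 symbols changed. Each of 19938 genes was represented by its cluster with the highest mean over all arrays.

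Group means were fitted over all 15 arrays with limma 3.58.1 in R 4.3.3 (lmFit, eBayes), and p-values were adjusted by Benjamini and Hochberg over all 19938 genes, threshold 0.05. The fit was tested on simulated data. An exact permutation test planned for Bace2 minus Bace1 is not reported, since it uses the beta arrays on which Bace2 was chosen. Members and lists were chosen with earlier results of these data known. Named were the 6 genes, Pdx1, per list and comparison up to 4 genes past the threshold or else up to 2 with the largest difference, and the 5 nearest profiles to Bace2 and Tmem27 (Gm and Rik symbols skipped). Alternatives covered scaling, a filter on dim genes, moderation, arrays in the fit, the replicate block, other clusters of a gene and left-out arrays. Replicate numbers were not taken to pair the samples in the main fit. Of 15 same-numbered pairs of arrays, 5 had correlated deviations above 0.1 (lowest -0.172, highest 0.224). The median correlation was 0.0432 for same-numbered and -0.00747 for other pairs. Such weak correlations cannot exclude a pairing.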

Additional observations from a re-analysis of the deposited data

Results flagged for a closer look

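In 10 of 117 sets of 5 arrays, each of 1 gene or marker list in 1 group, the highest or lowest array stood far from the other 4 by Dixon's criterion, which chance meets in about 1 in 20 such sets. Among the genes followed here, App read 9.25 in Pdx1-deficient replicate 3, where the other 4 read 8.79 to 8.90, and Aplp1 read 8.51 in Pdx1-deficient replicate 1, where the others read 8.74 to 8.79.

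Among the pathway genes, Adam17 was highest in alpha replicate 2 (7.34, others 6.50 to 6.71) and Ctsd lowest in alpha replicate 1 (8.50, others 9.09 to 9.26). Psenen was lowest in Pdx1-deficient replicate 4 (8.28, others 9.91 to 10.19), and Snapin was lowest in alpha replicate 5 (7.39, others 8.25 to 8.58).

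Of the marker lists, the alpha-cell mean was lowest in alpha replicate 2 (9.34, others 9.88 to 10.06) and, within a narrow range, in beta replicate 1 (9.18, others 9.23 to 9.25). The acinar mean was highest in alpha replicate 5 (12.15, others 6.06 to 7.62) and in Pdx1-deficient replicate 1 (7.25, others 5.99 to 6.24).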

How the results depend on the processing

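The number of the 6 genes past the threshold for Pdx1-deficient minus beta, 0 as reported, was 1 (Bace2) with dim clusters removed, with only the 2 groups compared, and with Pdx1-deficient replicate 1 and alpha replicate 2 both left out, and 0 to 1 when single arrays were left out. For alpha minus beta, 1 as reported, it was 2 without that pair of arrays and 1 to 3 in the leave-outs, Bace2 included each time. For Pdx1-deficient minus alpha, 0 as reported, it was 1 and 0 to 1. Bace2 was chosen on the beta and alpha arrays, so nothing is read from its part in these counts. The cause of the changes in count was not tested. With the replicate block Bace2 had a limma adjusted p of 0.113 in Pdx1-deficient arrays and no count over the 6 genes changed, while over all genes 8 passed in place of 217, 29 after repeated quantile normalization, 121 with trend and robust moderation, 89 with only the 2 groups, 389 with dim clusters removed and 615 with array medians subtracted, which moved the median gene from 0.06 to -0.04. For Bace2 minus Bace1, -1.58 as reported, the leave-outs gave -1.81 to -1.38. Exact sign flips of the numbered pairs, added after seeing the data, keep the mean at -1.58 by arithmetic. They therefore say nothing about its stability, and their p-value is left out like that of the permutation test.

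Differences that changed sign were small and did not pass. Array medians subtracted gave -0.08 for Aplp1 and -0.09 for Aplp2 (Pdx1-deficient minus beta) and -0.02 for Tmem27 (alpha minus beta), and the pair of arrays left out gave -0.02 for Aplp2 and -0.01 for Tmem27 in the same comparisons. Repeated quantile normalization gave 0.05 for Bace1 (alpha minus beta) and 0.01 for Adam9 (Pdx1-deficient minus beta), and the mean of 2 clusters gave -0.09 for Ece2 (Pdx1-deficient minus alpha). Leave-outs spanned, for Pdx1-deficient minus beta, -0.10 to 0.17 in Aplp1, -0.12 to 0.12 in Aplp2 and -0.18 to 0.00 in Adam9; for alpha minus beta, -0.08 to 0.04 in Bace1, -0.01 to 0.14 in Tmem27 and -0.04 to 0.23 in Aplp1; and for Pdx1-deficient minus alpha, 0.00 to 0.16 in Tmem27, -0.45 to 0.19 in Pdx1, -0.34 to 0.17 in Psenen and -0.03 to 0.12 in Ctse.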
